A study of Mus musculus with 13 samples.

Results

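The genes described here encode 35 nuclear subunits of respiratory complexes II, III and IV and of ATP synthase, with cytochrome c. Left out are the cytochrome c oxidase genes listed here as tissue isoforms. Cox6b1 and Cox7b are members, although Cox6b2 and Cox7b2 stand on that list. The 35 were taken by gene symbol, 4 from complex II, 10 from complex III with cytochrome c, 6 from complex IV and 15 from ATP synthase. All 35 were measured, among 17257 genes tested. Their transcripts are read by 63 of the array's 55681 probes, of which 62 were bright enough to keep. Gastrocnemius muscle RNA of individual male mice was compared between 7 UCP1-TG mice, which carry a UCP1 transgene in skeletal muscle, and 6 wild type (WT) littermates. Both groups are C57BL/6J, were given as 12 weeks old, and ate the same purified low fat diet for 12 weeks. The promoter that drives the transgene is not given in the sources used here. Each mouse's RNA was labelled with Cy5 and hybridised against 1 reference pool of Cy3-labelled RNA, so every value below is a log2 ratio of a mouse to that pool, and every difference is UCP1-TG minus WT on the log2 scale.

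The complexes sit in the inner mitochondrial membrane. Complex II passes electrons from succinate to ubiquinone, complex III passes them on to cytochrome c, and complex IV hands them to oxygen. Complexes III and IV pump protons, and ATP synthase lets the protons flow back through its rotating membrane ring to make ATP. UCP1 is a proton carrier of brown fat that lets protons return without making ATP. All subunits of complex II and cytochrome c are encoded in the nucleus, whereas complexes III and IV and ATP synthase also hold subunits encoded by mitochondrial DNA.

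The share of probes with a Cy5 signal clearly over background lay between 37.1% and 43.2% on every array. The 13 arrays came from 4 slides scanned on 1 day, and each slide held both groups. The probe for Ucp1 ran from -0.20 to 0.85 on the UCP1-TG arrays, against -4.23 to -2.82 on 5 WT arrays and 0.45 on the array labelled WT 4. That array also had the highest mean level of white adipocyte markers among WT arrays, while its Fgf21 value lay with those of the other WT arrays. Among WT arrays, the brown adipocyte markers Cidea, Dio2 and Zic1 were each highest on the array labelled WT 4. The mean level of these brown adipocyte markers ran from -0.87 to 0.72 in WT and from -0.25 to 0.05 in UCP1-TG. The cause of the high Ucp1 value on the array labelled WT 4 was not tested. Fgf21, a secreted hormone named in the study's title, ran from -0.19 to 1.12 in UCP1-TG and from -3.65 to -3.14 in WT. All 10 skeletal muscle markers were measured, 5 of them lower and 1 higher in UCP1-TG. Without the array labelled WT 4, 11 members were lower in UCP1-TG in place of 12.

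Of the 35 members, 12 were lower in UCP1-TG (34.3%), 0 were higher and 23 did not pass an adjusted p of 0.05. The count of lower members rests on the limma test after loess, the correction that removes dye bias as a function of spot brightness. Over all genes tested, 16.1% were lower and 16.9% higher. At an unadjusted p of 0.05, 19 members were lower and 0 higher, where 20.7% of all genes were lower and 21.3% higher. All 35 members lie among the brightest 10% of genes, of which 29.4% were lower and 33.5% higher. The members' share of lower genes is therefore near that of this brightest 10%. The members' differences ran from -0.52 to 0.09 with a median of -0.19, against a median of -0.00 over all genes, and 30 of the 35 lay below 0. In bulk muscle RNA, fewer cells of a type and less RNA per cell cannot be told apart.

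The direction depends on the scaling. In the Cy5 channel alone with quantile normalization, which uses no loess, 28 of the 35 members lay below 0. Below, values without loess are those of arrays only centred on their median. When arrays were only centred on their median, 31 of the 35 members lay above 0, their median was 0.17, and limma called 0 in either direction, where 1.53% of all genes were called lower and 6.02% higher. At an unadjusted p of 0.05 the members' count was 0 too, where 3.7% of all genes were lower and 20.1% higher. The median of all genes then stood at 0.14, and that of the brightest 10% at 0.29, against 0.00 for the dimmest 10%. Without loess the members' median on single arrays spread from -0.53 to 0.65 in UCP1-TG and from -0.35 to 0.50 in WT. With loess it spread from -0.24 to -0.07 in UCP1-TG and from -0.08 to 0.05 in WT, and 1 WT array, WT 3, lay below the 2 highest UCP1-TG arrays. The SD of this median between arrays was 0.44 in UCP1-TG and 0.36 in WT without loess, and 0.066 in UCP1-TG and 0.054 in WT with it.

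**Figure D1:**
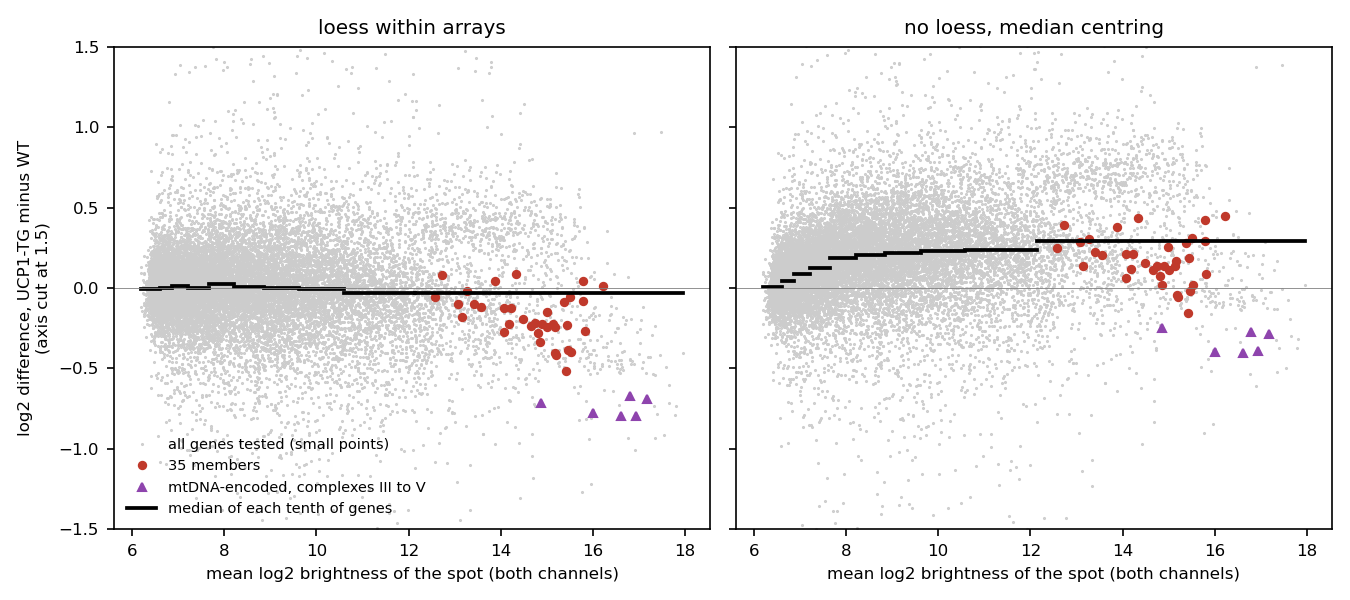
The log2 difference, UCP1-TG minus WT, of each gene is set against the mean log2 brightness of its spot, with loess on the left and with median centring only on the right. Black steps are medians of 10 equal bins of genes by brightness: they stay between -0.03 and 0.03 with loess and climb to 0.29 without it. The 35 members (red) sit mostly below the step of the brightest 10% in both panels, and purple triangles are 6 mitochondrially encoded subunits.

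Set against the other genes of the brightest 10% on the same array, the members' median was on average lower in UCP1-TG under both scalings. That 10% begins at a mean log2 brightness of 12.1, and the members span 12.6 to 16.2. Brightness was not matched gene by gene. The members' median minus the median of the other genes of the brightest 10% ran from -0.28 to -0.07 on the UCP1-TG arrays and from -0.08 to 0.08 on the WT arrays with loess. Without loess it ran from -0.28 to -0.06 in UCP1-TG and from -0.08 to 0.10 in WT. The groups overlapped by the array WT 3 alone in both cases, and their means differed by -0.17 with loess and by -0.15 without. No p was computed for these medians.

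In complex II, 1 of 4 members was lower (25%), with a median of -0.04 with loess and of 0.31 without. Among the brightest 10% of genes 29.4% were lower, with medians of -0.03 with loess and 0.29 without, so complex II as a group stood near them. Over all genes 16.1% were lower, and both shares are to be set beside the count of each complex below. Sdhd, one of the membrane anchors that hold heme b and bind ubiquinone, had -0.30, -0.21 and -0.12 as its lowest, median and highest values in UCP1-TG, against -0.11, 0.00 and 0.20 in WT. Every UCP1-TG array lay below every WT array. Its probe lies at chr9:50404630-50404689 on the minus strand (mm9), and its difference was -0.22 ± 0.06 (SE, adjusted p = 0.011). Without loess the difference was 0.12 and not called.

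The other anchor, Sdhc, had -0.41, -0.24 and -0.03 in UCP1-TG and -0.66, -0.27 and -0.13 in WT, a difference of 0.08 ± 0.08 with a 95% interval from -0.09 to 0.26. Its second probe gave -0.14 ± 0.09, so neither probe placed it on a side. The flavoprotein Sdha, which oxidises succinate, had -0.12, 0.08 and 0.18 in UCP1-TG and -0.05, 0.08 and 0.18 in WT, and its interval ran from -0.15 to 0.12. The iron-sulfur subunit Sdhb had -0.01, 0.08 and 0.37 in UCP1-TG and 0.01, 0.14 and 0.43 in 5 WT arrays, a sixth spot having been left out as an outlier. The groups overlapped almost fully for all of these 3 genes.

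In complex III and its cytochromes 2 of 10 members were lower (20%), 8 lay below 0 and the median was -0.23. Both called genes encode small subunits without a redox centre. Uqcrh, the hinge protein at which cytochrome c1 meets cytochrome c, had -0.15, -0.03 and 0.14 in UCP1-TG, against 0.25, 0.46 and 0.53 in WT, with no overlap. The difference was -0.41 ± 0.07 (adjusted p = 0.00013), which puts the change in level at -24.5% with loess. Without loess the difference of Uqcrh was -0.05 and not called. Uqcr11 had -0.38, -0.17 and -0.08 in UCP1-TG, against -0.17, 0.22 and 0.31 in WT, and differed by -0.34 ± 0.08 (adjusted p = 0.0032). The array WT 2 was the only WT array below the highest UCP1-TG array.

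By the brightest probe of each gene, the electron carriers of the group were not called. A second probe of Cycs was lower, at -0.51 ± 0.08. The Rieske iron-sulfur protein Uqcrfs1 differed by -0.27 ± 0.11 (adjusted p = 0.071), and its values were widely spread, from -0.49 to 0.21 in UCP1-TG and from -0.16 to 0.44 in WT. Cytochrome c1, Cyc1, stood at 0.09 ± 0.07, with values from -0.45 to -0.03 in UCP1-TG and from -0.35 to -0.12 in WT. Cytochrome c, Cycs, differed by -0.24 ± 0.15 with the widest interval of all members, -0.54 to 0.07. Its value was -0.86 on the array UCP1-TG 7 and between -0.25 and -0.07 on the other UCP1-TG arrays. The pair of core proteins that face the matrix, Uqcrc1 and Uqcrc2, differed by -0.18 ± 0.07 (adjusted p = 0.063) and -0.13 ± 0.06 (adjusted p = 0.12). The probe of Uqcrc2 is printed on 10 spots of each array, of which 8 to 10 were usable, and shows the precision of a single spot: its SD within an array was 0.05 to 0.20.

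The remaining small subunits of complex III divided. Uqcrb, a ubiquinone-binding protein, differed by -0.28 ± 0.11 and Uqcr10 by -0.22 ± 0.10 (adjusted p = 0.058 and 0.096). Uqcrq stood at 0.04 ± 0.07, with an interval from -0.11 to 0.20.

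All 6 complex IV members lay below 0, with a median of -0.18, and 2 were lower (33.3%). Cox6c, a subunit with a single membrane helix, had -0.23, -0.19 and -0.01 on 6 UCP1-TG arrays, 1 outlier spot left out, against 0.10, 0.27 and 0.39 in WT. The groups did not overlap, and the difference was -0.40 ± 0.07 (adjusted p = 0.00019). Cox5a, which sits on the matrix face, had -0.28, -0.13 and 0.15 on 6 UCP1-TG arrays, against 0.04, 0.14 and 0.27 in WT, a difference of -0.27 ± 0.08 (adjusted p = 0.013). One array, UCP1-TG 6, lay among the WT values, and on the slide that held it the Cox5a difference was 0.0088.

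The other 4 nuclear subunits of complex IV were not called. Cox5b, the neighbour of Cox5a on the matrix face, differed by -0.22 ± 0.09 (adjusted p = 0.072), while Cox7b and Cox7c, single-helix subunits, differed by -0.15 and -0.12 (adjusted p = 0.13 and 0.12). Cox6b1, on the face toward the intermembrane space, stood at -0.05 with an interval from -0.19 to 0.09.

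ATP synthase held 7 of the 12 lower members, out of 15, and its median was -0.19. Among the members, the 3 small accessory subunits of its membrane part, e, f and g (genes Atp5k, Atp5j2 and Atp5l), were all lower with no overlap between groups. Atp5l had the largest difference of any member. Its values were -0.32, -0.16 and 0.01 in UCP1-TG, against 0.23, 0.35 and 0.56 in WT, at chr9:44721352-44721411 on the minus strand (mm9). The difference was -0.52 ± 0.07 (adjusted p = 2e-05), which puts the change in level at -30.2% with loess. Without loess the difference of Atp5l was -0.15 and not called. Atp5j2 had -0.29, -0.15 and 0.09 in UCP1-TG, against 0.16, 0.33 and 0.41 in WT, and differed by -0.42 ± 0.07 (adjusted p = 0.00012). Atp5k differed by -0.25 ± 0.06 (adjusted p = 0.0056), its WT arrays lying within 0.21 and 0.31 and its UCP1-TG arrays between -0.17 and 0.19. Subunits e and g are known to help ATP synthase dimers form. The grouping by role was drawn with the values known, so the 3 of 3 is a description. It covers members only. Of 4 other genes tied to ATP synthase, 1 was lower and 3 were not called. Usmg5 was among those not called, at -0.18 ± 0.11 (adjusted p = 0.23), with overlapping groups.

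The c subunit, which makes up the rotating ring, is encoded by 3 genes whose mature protein is the same, and none of them was called. Atp5g3 had -0.00, 0.14 and 0.29 on 6 UCP1-TG arrays and 0.05, 0.39 and 0.62 in WT, a difference of -0.23 ± 0.10 (adjusted p = 0.078). It was called lower, at -0.29 (adjusted p = 0.019), without the array WT 6. Atp5g1 had -0.26, -0.05 and 0.13 in UCP1-TG and -0.21, 0.10 and 0.21 in WT, and Atp5g2 had -0.08, 0.12 and 0.41 in UCP1-TG and 0.06, 0.19 and 0.33 in WT. Their differences were -0.08 ± 0.08 and -0.09 ± 0.08, with intervals from -0.25 to 0.08 and from -0.26 to 0.08.

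In the F1 head and central stalk 2 of 5 genes were lower. Atp5a1, the alpha subunit, had -0.23, -0.10 and 0.14 in UCP1-TG, against -0.01, 0.17 and 0.28 in WT, and differed by -0.22 ± 0.07 (adjusted p = 0.019). It was not called in the authors' deposited values, in Cy5 alone or by Agilent's log ratio, at -0.069, -0.17 and -0.13. Atp5b, the beta subunit that carries the catalytic sites and pairs with alpha in the head was not called: its difference was 0.01 ± 0.06, with an interval from -0.12 to 0.15. The difference between the differences of these 2 genes was not tested. Atp5e, the small epsilon subunit at the foot of the central stalk, had -0.46, -0.00 and 0.29 in UCP1-TG, against 0.17, 0.30 and 0.64 on 5 WT arrays, and differed by -0.39 ± 0.11 (adjusted p = 0.0086). The gamma and delta subunits, Atp5c1 and Atp5d, each stood at -0.10 and were not called.

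Of the 4 genes of the peripheral stalk, which keeps the head from turning, 2 were lower. Atp5h, subunit d, differed by -0.24 ± 0.07 on 6 UCP1-TG and 5 WT arrays (adjusted p = 0.015), and was not called by Agilent's log ratio or in the authors' deposited values, at -0.093 and -0.042. Atp5j, coupling factor 6, differed by -0.19 ± 0.06 (adjusted p = 0.026), and lost its call without UCP1-TG 2, without UCP1-TG 4 or without the array labelled WT 4, with adjusted p-values of 0.054, 0.060 and 0.060. Atp5f1, subunit b, stood at -0.12 ± 0.09 and Atp5o, the oligomycin sensitivity protein, at 0.04 ± 0.06, with an interval from -0.09 to 0.18.

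**Figure D2:**
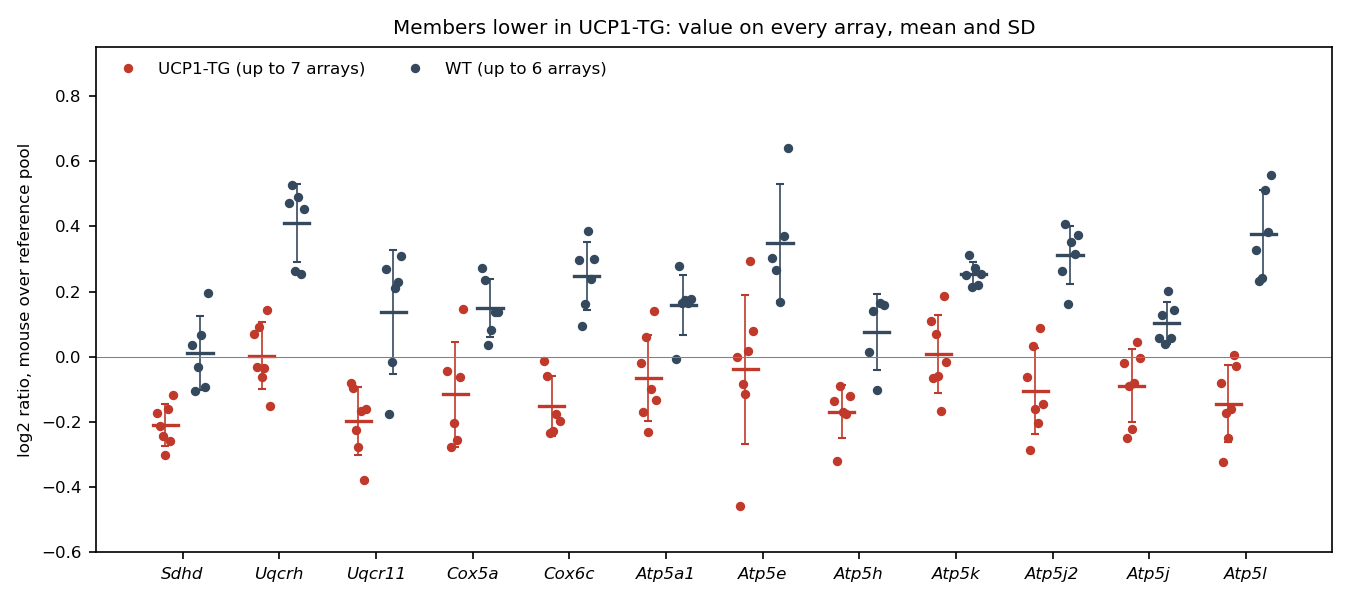
Each point is 1 array's log2 ratio of mouse to reference pool, after loess, for the 12 members lower in UCP1-TG; bars are the mean and SD of up to 7 UCP1-TG (red, left) and 6 WT (dark, right) arrays. Sdhd, Uqcrh, Cox6c, Atp5k, Atp5j2 and Atp5l show no overlap, and the UCP1-TG values of Atp5e reach from -0.46 to 0.29.

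In all, 6 members had every UCP1-TG array below every WT array, where 7.26% of all genes tested did. Differences within a slide were below 0 on all 4 slides for 22 of the 35 members and for 11 of the 12 called ones, Cox5a being the exception. The share of all genes for which this held is not given here. On single slides 26 to 32 of the 35 members lay below 0, where 8577 to 8670 of all 17257 genes did. A slide held 1 or 2 arrays of a group. The called genes were chosen from these same arrays, so their count is no further test. The median over members within a slide ran from -0.26 to -0.11 with loess and from -0.03 to 0.34 without. Among the 23 members not called, 9 had a 95% interval that lay within 0.25 on either side of 0, among them Sdha, Uqcrq, Cox6b1, Atp5b and Atp5o.

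**Figure D3:**
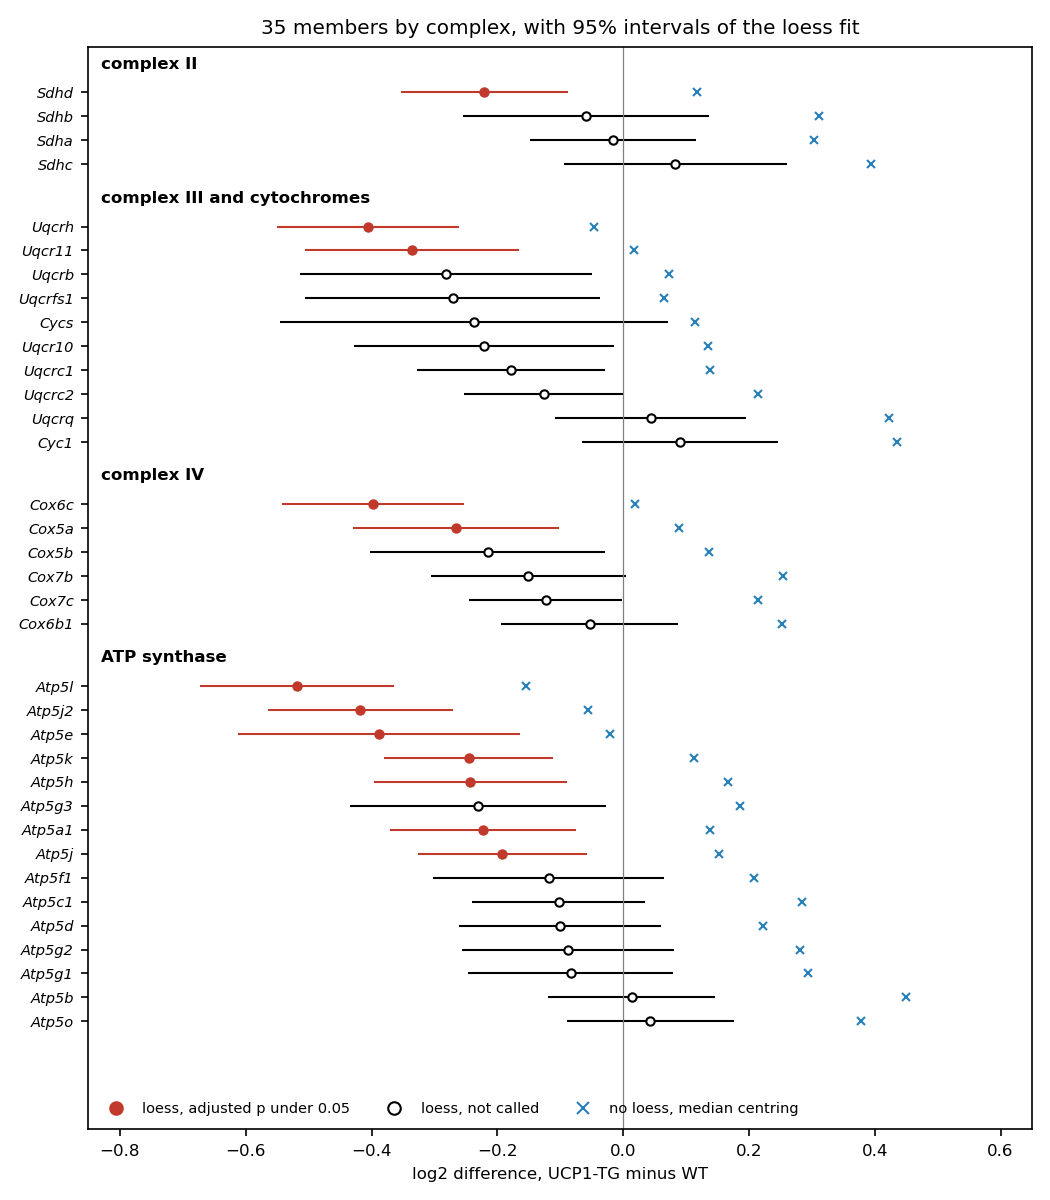
Points give the log2 difference, UCP1-TG minus WT, of each of the 35 members after loess with its 95% interval, in red where the adjusted p was under 0.05; crosses give the same difference with median centring only. The intervals lie to the left of 0 for all 12 called members, while the crosses lie to the right of 0 for 31 of the 35 genes and none is called.

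With median centring only, the called members that kept their direction were Uqcrh, Atp5e, Atp5j2 and Atp5l, at -0.05, -0.02, -0.06 and -0.15. None of them was called there. The authors' deposited values, log2 values that followed the Cy5 channel, gave 4 members lower and 1 higher where 16.9% of genes were lower and 15.6% higher. The 4 were Uqcrh, Cox6c, Atp5j2 and Atp5l, at -0.28, -0.25, -0.27 and -0.40, and the higher one was Uqcrq at 0.22 (adjusted p = 0.049). In the Cy5 channel alone, with quantile normalization, 12 members were lower and Atp5b was higher by 0.31 (adjusted p = 0.0025), where 14.1% of genes were lower and 16.1% higher. These 12 are not the same genes: Cox5a and Atp5a1 were not called, and Uqcrc1 and Uqcrc2 were. Agilent's own log ratio gave 12 lower and 2 higher, Uqcrq at 0.26 and Atp5b at 0.21, where 18.3% of genes were lower and 20% higher. There Cox5a, Atp5a1, Atp5e and Atp5h were not called, and Uqcrfs1, Cycs, Cox7c and Atp5g3 were lower. Uqcrq and Atp5b lay above 0 under each of these scalings.

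Several members are carried by more than 1 probe, each of 60 bases, and these give further readings, some of them from overlapping sequence. Of the 62 kept probes 25 were lower (40.3%), 1 was higher and 36 were not called, where 15.8% of all kept probes were lower and 16% higher. Lower calls grew more frequent with brightness, from 4.11% of the dimmest 10% of genes to 29.4% of the brightest 10%, where the members lie. All kept probes are therefore an unlike background, and several probes can repeat 1 gene. Of the 19 genes with several kept probes, 15 had all of them on 1 side of 0. All probes were lower for Uqcrh, Uqcr11, Atp5j2 and Atp5l, the last with 6 probes between -0.52 and -0.32. These 6 cover overlapping bases at chr9:44721315-44721483 and are not independent of each other. Of these 6 probes, 4 share 31 to 37 bases with array probes that carry no gene name. The Uqcrh probes share 41 bases with each other and the Uqcr11 probes 31, so the probes of these genes are not independent either. Whether a probe lies in coding sequence or in an untranslated exon was not annotated in the files. The first 30 bases of the brightest probe of the 5 genes with the smallest adjusted p, and of both Uqcrq probes, which did not give the same call, are shown in lower case.
Atp5l: tgttcttggaccatgtgtaacgggactgct
Atp5j2: gaaccttcataccctgactgagaactagtg
Uqcrh: gtagcttctcttctgtgtgactagcagtga
Cox6c: cgctcctgaactatgaaacatgaatatgtg
Uqcr11: tgttgacagacactagggctgccttgatgg
Uqcrq, first probe: ctgggagaggaatccacactgtagtcttga
Uqcrq, second probe: agtttgagcagtccaaaaggaagaatccag

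The first Uqcrq probe, at chr11:53242451-53242510, gave 0.04 and the second, at chr11:53242551-53242610, gave 0.24 ± 0.07 (adjusted p = 0.0087), the only member probe that was higher. The first shares 48 of its bases with an unnamed probe. This pair and the ones that follow were chosen after their values were seen. Cycs, not called by its brightest probe, was lower by its second one at -0.51 ± 0.08 (adjusted p = 9.2e-05). Both other probes of Uqcrb were lower, at -0.25 and -0.23, though the one at -0.25 shares 49 bases with the brightest. The second probe of Cox5b was lower too, at -0.26. The array's annotation places it on chromosome 15 rather than with the first on chromosome 1. By its second probe Atp5h stood at -0.09 and Atp5j at 0.02, neither called, so the calls of these 2 genes rest on 1 probe each. The dim second Atp5j probe was well above background on 12 of the 13 arrays. The 2 further Atp5k probes, placed on chromosome Y in the file, gave -0.20, called lower, and -0.17, not called.

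**Figure D4:**
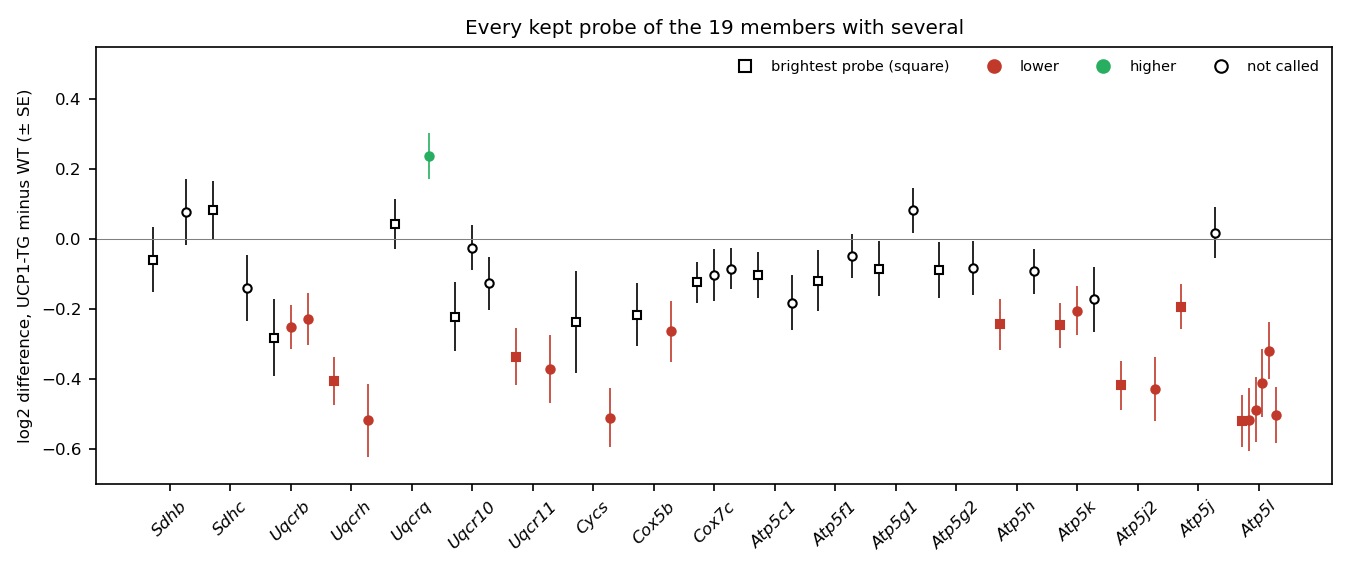
Each point is the log2 difference, UCP1-TG minus WT, of 1 probe with its SE, for the 19 members with several kept probes; squares mark the brightest probe and filled points the called ones. All 6 Atp5l probes lie between -0.52 and -0.32, while Uqcrq has 1 probe at 0.04 and 1 called higher at 0.24.

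The partners of these subunits that are encoded by mitochondrial DNA were lower by more. All 6 of complexes III to V passed the test, with a median of -0.75 against -0.19 for the 35 nuclear members. Cytochrome b (CYTB), the membrane core of complex III, had -0.83, -0.22 and -0.10 in UCP1-TG, against 0.12, 0.31 and 0.64 in WT, a difference of -0.67 ± 0.11. The 3 catalytic core subunits of complex IV, COX1, COX2 and COX3, differed by -0.69, -0.79 and -0.80. ATP6 and ATP8 of ATP synthase differed by -0.78 and -0.71, ATP8 on 4 of the 6 WT arrays. The groups overlapped in none of these 6 genes. No nuclear member of the same complexes reached the smallest of these differences, the lowest being -0.41 for complex III, -0.40 for complex IV and -0.52 for ATP synthase. The first 30 bases of 1 probe per complex, which identify the transcripts, are these.
CYTB: ccaatcacacaaattttgtactgaatccta
COX2: aaccatagctttatgcccattgtcctagaa
ATP6: aataataggattcccaatcgttgtagccat

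This gap inside the complexes did not depend on loess. The median of the 6 mitochondrially encoded genes minus the median of the 35 members, on the same array, ran from -0.82 to -0.39 in UCP1-TG and from -0.11 to 0.15 in WT with loess. It ran from -0.76 to -0.32 in UCP1-TG and from -0.09 to 0.16 in WT without, so the groups did not overlap under either scaling. The means of the groups differed by -0.57 with loess and by -0.52 without. No p was computed, and a ratio within an array shows unequal change, not that one side stood still. Without loess the 6 genes themselves differed by -0.40 to -0.25 and none was called.

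**Figure D5:**
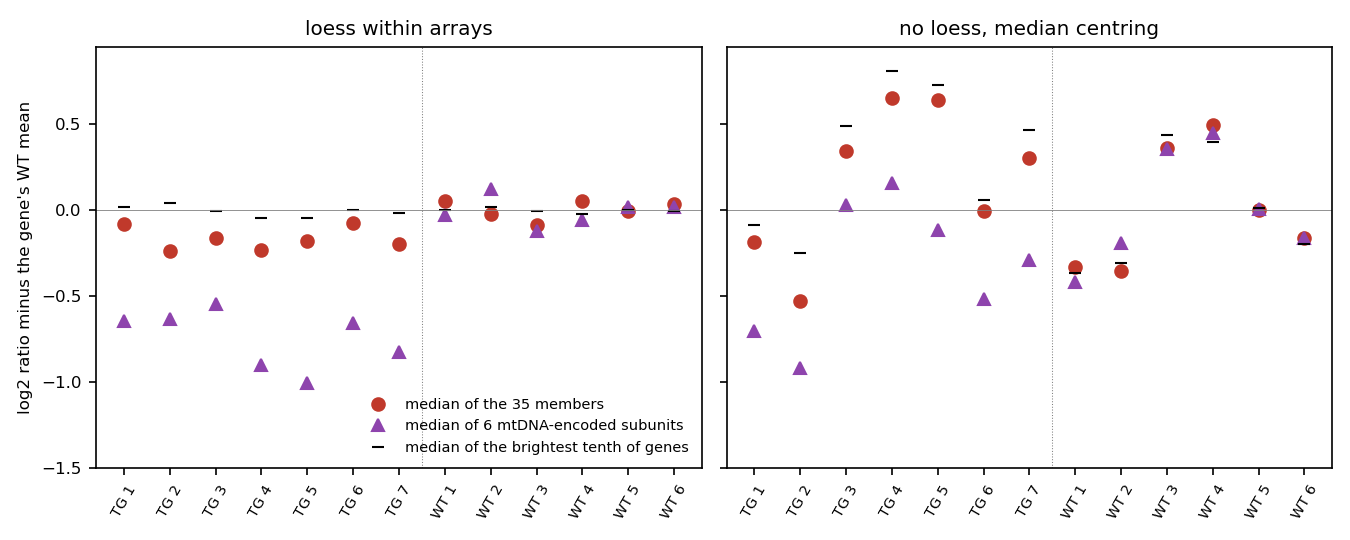
For each array, UCP1-TG left of the dotted line and WT right, symbols give the median over genes of the log2 ratio minus the gene's WT mean, for the 35 members, the 6 mitochondrially encoded subunits of complexes III to V and the rest of the brightest 10% of genes. Without loess (right) all 3 shift together from array to array, and in UCP1-TG the order from the top stays brightest 10%, members, mitochondrially encoded subunits on every array.

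Other genes of the pathway divided by kind. Over all 13 subunits encoded by mitochondrial DNA, 13 were lower with a median of -0.79, led by the complex I genes ND3, ND2 and ND1 at -0.94, -0.93 and -0.87. The array's annotation places the ND3 probe on chromosome 1. Of 37 nuclear complex I subunits, 22 were lower (59.5%) and 0 higher, with a median of -0.24, where 16.1% of all genes were lower. Ndufa4 (since placed in complex IV) and Ndufb5 had the largest differences there, -0.56 and -0.54. The tissue isoforms of cytochrome c oxidase, 10 of them measured, did not share a direction: 3 were higher and 2 lower. Cox6a2, the striated muscle form, was higher by 0.97 ± 0.07, and was so without loess too at 1.37, while the muscle forms Cox7a1 and Cox8b differed by -0.62 and -0.61.

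Of 26 assembly factors measured, 4 were higher (15.4%) and 2 lower (7.69%), shares no larger than those of all genes, and their median was 0.05. Those higher were the copper chaperones of complex IV Sco2 at 0.48 and Sco1 at 0.23, the heme A synthase Cox15 at 0.27, and the ATP synthase factor Tmem70 at 0.31. Acn9 of complex II and Ttc19 of complex III were lower, at -0.38 and -0.34. Of 4 further genes tied to ATP synthase, 2010107E04Rik, which encodes a small membrane subunit of the enzyme, was lower at -0.33 and stood at 0.02 without loess. Sco2 was called without loess too, at 0.70 (adjusted p = 0.041).

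Markers of some other cell and fibre types differed between the groups, and their part in the members' differences was not tested beyond the fit below. The 7 slow fibre markers were all higher in UCP1-TG (median 0.88), and 6 of 9 fast fibre markers were lower and 1 higher (median -0.61). The mean level of the slow fibre list ran from -0.01 to 0.59 in UCP1-TG and from -1.06 to -0.01 in WT. Of 7 white adipocyte markers 6 were higher (median 0.81), and their mean level ran from -0.23 to 0.39 in UCP1-TG and from -0.66 to -0.02 in WT. All 3 erythroid markers were higher (median 0.62), with list levels of -0.41 to 0.81 in UCP1-TG and -0.87 to -0.15 in WT. Of 5 Schwann cell markers 3 were higher, of 6 fibroblast markers 2, and of 3 brown adipocyte markers 1. Only 1 of 8 endothelial and 1 of 5 macrophage markers were called, both lower. Of 4 smooth muscle markers 0 were called. Adipoq, which defines the white adipocyte list, was measured on all arrays, at -0.59 to 0.47 in UCP1-TG and -1.14 to -0.14 in WT. With the adipocyte level as a covariate 5 members were lower and 0 higher: Uqcrh, Uqcr11, Cox6c and Atp5l at -0.42, -0.52, -0.61 and -0.53, and Cycs at -0.77. In that fit 6.47% of all genes were lower and 6.26% higher, and the covariate and the genotype overlap.

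RefSeq promoters (GRCm38.p6), 250 bases before to 50 after a gene's start, were matched for 28 of the 35 members, with 31 starts. Uqcrb, Uqcrq, Cyc1, Uqcrc2, Sdhc, Cox6c and Atp5a1 had no entry. The letters searched on both strands were the core of the NRF-1 site, GCATGCG, the core of the ETS site bound by GABP (NRF-2), CCGGAAG, and the core of the YY1 site, AAGATGG. A palindromic NRF-1 site holds GCATGCG on both strands, and the end of CCGGAAG can overlap the start of AAGATGG. NRF-1 and GABP are known as activators of many respiratory chain genes. GCATGCG was found in 8 of the 31 promoters (25.8%), against 3.58% of all 32851 in the table. CCGGAAG was found in 10 (32.3%), against 8.86%, and AAGATGG in 4 (12.9%), against 6.34%. The ETS letters occurred in the promoters of 8 of the 10 called genes that were matched and of 2 of the 18 uncalled ones. The NRF-1 letters occurred in 4 of the 10 and 4 of the 18, and the YY1 letters in 2 of the 10 and 2 of the 18. These are counts with no test, and the motifs were chosen with earlier results of these data known. Called here means by the loess fit and the brightest probe, and these calls depend on the scaling. A match is not a shown binding site. The 120 bases before the start are printed for 6 called genes and for Sdhb and Cycs, 2 uncalled genes with the NRF-1 letters, with the NRF-1 and ETS letters of either strand in capitals. Every sequence printed holds such letters. The called Cox5a, Atp5j2 and Atp5l, not printed, hold none in these 120 bases, and the uncalled Cox6b1, not printed, holds the ETS letters there.
Sdhd, chr9:50603850-50603969, minus strand: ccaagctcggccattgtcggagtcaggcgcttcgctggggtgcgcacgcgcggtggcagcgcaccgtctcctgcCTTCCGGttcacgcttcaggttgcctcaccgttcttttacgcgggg
Uqcrh, chr4:116075071-116075190, minus strand: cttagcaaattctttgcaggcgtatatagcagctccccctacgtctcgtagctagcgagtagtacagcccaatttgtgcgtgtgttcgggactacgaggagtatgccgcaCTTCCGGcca
Uqcr11, chr10:80406822-80406941, minus strand: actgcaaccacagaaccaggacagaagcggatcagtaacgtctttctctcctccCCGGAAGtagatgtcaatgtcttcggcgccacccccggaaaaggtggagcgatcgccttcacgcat
Atp5e, chr2:174464102-174464221, minus strand: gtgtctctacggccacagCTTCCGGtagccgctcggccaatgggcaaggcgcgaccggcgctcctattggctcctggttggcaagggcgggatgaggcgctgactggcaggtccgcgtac
Atp5h, chr11:115419920-115420039, minus strand: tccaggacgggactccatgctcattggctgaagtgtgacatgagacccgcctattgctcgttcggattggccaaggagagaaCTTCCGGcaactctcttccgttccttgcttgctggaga
Atp5k, chr5:108434400-108434519, minus strand: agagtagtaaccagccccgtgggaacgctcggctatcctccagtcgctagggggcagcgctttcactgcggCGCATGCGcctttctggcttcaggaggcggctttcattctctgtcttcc
Sdhb, chr4:140961151-140961270, plus strand: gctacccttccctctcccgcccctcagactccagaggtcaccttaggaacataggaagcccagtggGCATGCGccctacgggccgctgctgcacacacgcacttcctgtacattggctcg
Cycs, chr6:50566570-50566689, minus strand: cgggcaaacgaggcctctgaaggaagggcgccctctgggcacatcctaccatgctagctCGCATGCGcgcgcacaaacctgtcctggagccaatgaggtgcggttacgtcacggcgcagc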

How the data were processed

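RNA of single mice (200 ng each) was measured on 2-colour Agilent arrays of 62976 spots, 3671 of them control spots. Per the file headers and the submitters' processing notes, Agilent Feature Extraction 10.5.1.1 gave, for each spot, the deposited mean intensity, the deposited local background intensity, a deposited log10 ratio and the deposited flags for outlier spots and spots well above background. The authors also deposited a table of log2 values, normalized with further samples that are not analysed here; its columns followed Cy5 of the same array, and its exact scaling is not given in the sources used here. Background was corrected with normexp (offset 50) and dye bias with loess within arrays in limma 3.58.1 (R 4.3.3), control and outlier spots having no weight. Outlier spots were then left out, which removed 1 or 2 array values from 10 members. Spots of a probe were averaged, 22716 probes whose Cy5 signal passed the flag for signal over background on 6 or more of the 13 arrays were kept, and the brightest probe stood for a gene. lmFit and eBayes gave the differences and two-sided p-values, with Benjamini-Hochberg adjustment over 17257 genes and a threshold of 0.05. The number of arrays limits the precision. In simulated data on 17134 genes with 200 changed, 16% of changes of 0.25 and 85% of changes of 0.5 were recovered. With so few genes changed, the adjustment is stricter than in these data, where 2785 genes were lower and 2910 higher. The simulated shares therefore do not give the recovery here, though small differences can be missed. Alternatives in scaling, background, filter, probe choice, slide, replicate number, adipocyte markers and single arrays are given below. The members, lists, roles and motifs were chosen with earlier results of these data known. All 35 members were accounted for, with array values for complex II, the subunit c genes, the 2 most changed called members of each complex and genes whose probes disagreed; of each other list, up to 3 called genes with the largest differences were named, except 1 that is not reported here. Probe positions are those of the files (mm9); promoters come from RefSeq (GRCm38.p6), where 34 members matched by symbol and 1 by an older symbol.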

Additional observations from a re-analysis of the deposited data

Results flagged for a closer look

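In 100 groups of arrays examined for members and checks, 5 held an array far from the others of its group (5%), and chance alone gives about 1 in 20. Uqcrb stood at -0.67 on the array UCP1-TG 2, against -0.17 to 0.15 on the other UCP1-TG arrays. Cycs stood at -0.86 on UCP1-TG 7, against -0.25 to -0.07 on the others, and Atp5b at -0.023 on UCP1-TG 4, against 0.15 to 0.25. Uqcr10 stood at 0.66 on the array WT 6, against 0.18 to 0.35 on the other WT arrays. None of these 4 genes was called by its brightest probe. Ucp1 stood at 0.45 on the array labelled WT 4, against -4.23 to -2.82 on the other WT arrays, so its difference on the slide that holds that array was -0.13.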

How the results depend on the processing

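Without loess, all genes called numbered 1303 (1039 higher, 264 lower; 79.7% of calls higher, against 51.1% with loess), members lower 0, and the medians were 0.17 for members, 0.31 for complex II, 0.12 for complex III, 0.18 for complex IV and 0.19 for ATP synthase, with 0 lower in each. Called members that turned above 0 there were Sdhd 0.12, Uqcr11 0.017, Cox5a 0.089, Cox6c 0.018, Atp5a1 0.14, Atp5h 0.17, Atp5k 0.11 and Atp5j 0.15, with 2010107E04Rik 0.016; the cause was not tested. Taking away the all-gene median too, chosen after seeing the data, left 893 genes called (413 higher, 480 lower), 0 members in any complex, medians of 0.025, 0.17, -0.017, 0.034 and 0.044 in the same order, and Atp5h at 0.025 and Atp5j at 0.012. Loess followed by quantile normalization, also added later, changed none of the 35 member results. The authors' table gave 4 members lower and 1 higher (complex II 0, III 1, IV 1, ATP synthase 2; medians -0.069, 0.084, -0.10, -0.035 and -0.042). Agilent's log ratio gave 2 members higher, complex III 4 lower, medians of -0.12 for members and -0.089 for complex IV, and Cox5a at 0.0038. Cy5 alone gave 1 member higher, complex III 4 lower and complex IV 1 lower. The adipocyte covariate gave 2198 genes called (1081 higher, 1117 lower) and 5 members lower (complex II 0, IV 1, ATP synthase 1), with a complex II median of -0.19. Averaging probes and slide as a random block gave 14 and 15 members lower, each with 4 in complex III. Within slide 2 the medians of members and complex III were both -0.11; within slide 3 they were -0.26 and -0.32, with -0.19 for complex II and -0.34 for ATP synthase; within slide 4 Cox5a was 0.0088, and within slide 3 Ucp1 was -0.13. With the replicate number as a block (replicate block), 13 members were lower, 4 of them in complex III; Atp5a1 and Atp5h were not called (adjusted p = 0.056 and 0.10), and Uqcrb, Uqcr10 and Atp5g3 were. Of the same-numbered arrays, 4 pairs shared a slide and correlated by 0.07 to 0.23, and 2 pairs on different slides by -0.23 and -0.16, so the numbers were not taken as pairs. Background correction, both dim-probe filters, outlier spots and slide as a fixed block gave 11 to 14 members lower and 0 higher.

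Leaving out single arrays gave 5138 to 5708 genes called, 2581 to 2937 higher and 2528 to 2771 lower, and 11 to 14 members lower, 0 higher; complex II gave 1, complex III 2 to 3, complex IV 2 to 3 and ATP synthase 6 to 8, with medians of -0.22 to -0.15 for members, -0.06 to -0.00 for complex II, -0.26 to -0.18, -0.21 to -0.14 and -0.21 to -0.17 for the others. Without 1 array, 5 uncalled members became lower: Uqcrc1 (UCP1-TG 7 or WT 3), Uqcrfs1 (UCP1-TG 6, WT 1 or WT 6), Uqcrb (UCP1-TG 1 or WT 2), Cox5b (UCP1-TG 6 or WT 3) and Atp5g3 (WT 6).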
